A study of Mus musculus with 12 samples.

Results

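This report describes 10 genes that cut the extracellular matrix or restrain that cutting, in retinas of p16‐3MR mice after a brief rise of intraocular pressure (IOP). They are 5 matrix metalloproteinases (Mmp2, Mmp3, Mmp9, Mmp12 and Mmp14), 2 ADAMTS proteases (Adamts1 and Adamts4) and 3 tissue inhibitors of metalloproteinases (Timp1, Timp2 and Timp3). The genes were chosen by name for their roles, with earlier results of these data known, and make up 10 of the 24340 rows of the expression table, of which 18509 rows were above 0 in at least 1 library. RNA was sequenced from both retinas of 6 mice aged 12 to 16 weeks, collected 3 days after 1 eye had been held at 85 to 90 mm Hg for 60 min by saline infusion into the anterior chamber. The fellow eye, which was not infused, was the control. Mice 3, 4 and 6 were mock treated and gave the control and IOP‐treated retinas without GCV, and mice 1, 2 and 5 received ganciclovir (GCV) at 25 mg/kg daily for 3 days and gave the control and IOP‐treated retinas with GCV, so that each of the 4 groups held 3 retinas. All 6 mice, controls included, carried the 3MR transgene. Its product includes a herpesvirus thymidine kinase that makes GCV toxic, and since p16 sequences drive it, only cells in which these are active should be killed. The fellow eye shares the animal and the systemic GCV with the treated eye but had no infusion, and the insult was acute. The effect of pressure and the effect of cannulating the eye therefore cannot be told apart.

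Matrix metalloproteinases are zinc enzymes, secreted or anchored to the cell surface, that are made as inactive precursors and cleave collagens, laminins, elastin and many cell surface proteins. ADAMTS proteases are related secreted enzymes, several of which cut the lecticans, the large proteoglycans of neural matrix. TIMPs bind the active site of these enzymes and block it, so the cutting depends on the balance of protease and inhibitor as well as on activation of the precursors, which RNA levels do not measure.

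The data were FPKM values (fragments per kilobase of transcript, relative to library size) without counts. Estimated depth was 6860000 to 9050000 fragments in 11 libraries and 4000000 in the IOP‐treated retina of mouse 6, the shallowest. The median SD of log2 values within a group was 0.34 in IOP‐treated retinas without GCV and 0.20 with GCV, against 0.12 and 0.14 in the control retinas. The IOP‐treated retina of mouse 3 stood apart with sums of 83.7 FPKM for fibroblast, 68.8 FPKM for pericyte and smooth muscle, 80.0 FPKM for cornea and iris and 498 FPKM for blood markers, where the other 11 libraries had at most 29.9, 21.3, 43.1 and 203 FPKM. Dcn (63.9 FPKM) made up most of its fibroblast sum, and Des (37.1 FPKM) and Acta2 (23.7 FPKM) most of its pericyte sum. Markers of neural retina summed to 27971 to 51960 FPKM in all 12 libraries. The row of Cdkn2a, the locus that encodes p16Ink4a and a second protein, was at most 0.601 FPKM and was called in no comparison.

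Timp1, Mmp12 and Adamts1 were higher in the IOP‐treated eye than in the fellow eye of every mouse, and the other 7 genes did not pass the test. Averaged over both arms, which used all 6 eye pairs, Timp1 rose by 3.43 ± 0.41 (SE) on the log2(FPKM + 1) scale, Mmp12 by 1.83 ± 0.28 and Adamts1 by 0.86 ± 0.14 (limma, adjusted p = 0.00107, 0.00382 and 0.00546). Thus 3 of 10 genes were called, all upwards, where 12.2% of all genes tested were called in either direction. All 10 averaged differences were above 0, with a median of 0.43 against 0.01 over all genes, but that of Timp3 was 0.00. Because these are whole retinas, more cells that carry a transcript and more transcript per cell cannot be told apart.

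**Figure D1:**
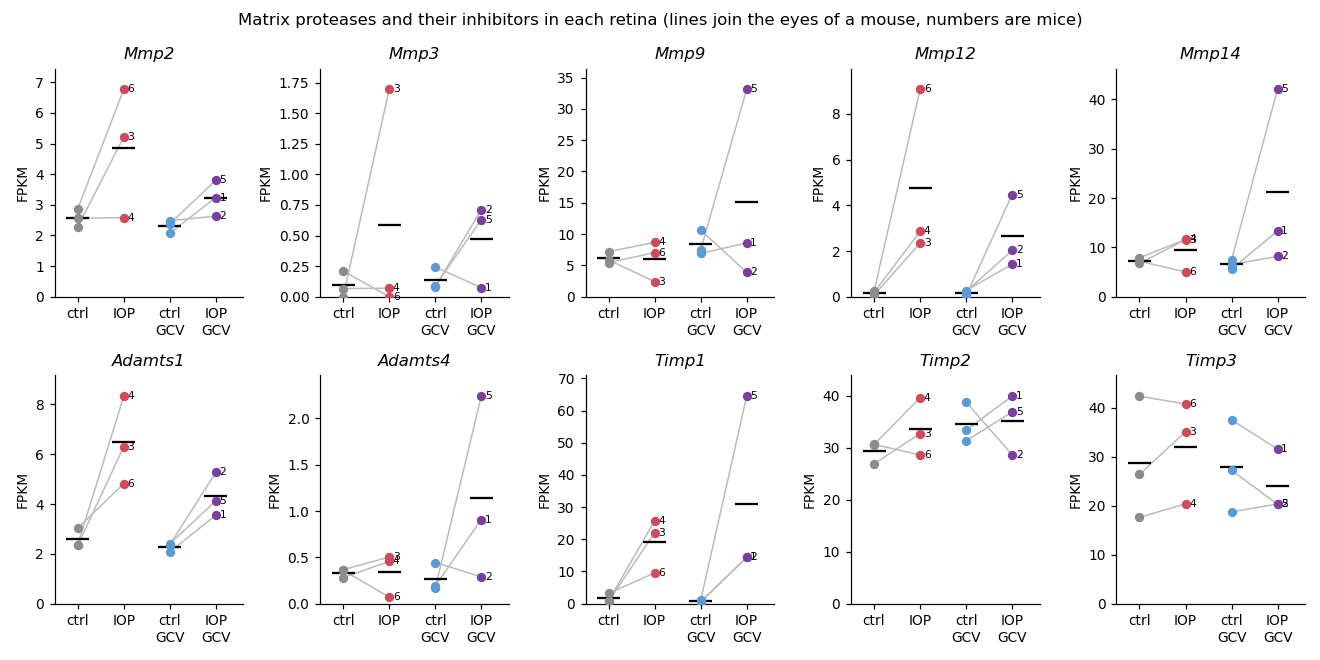
FPKM (vertical axes, from 0) of each of the 10 genes in the 4 groups, with 1 point a retina, a grey line joining both eyes of a mouse, the mouse number beside its IOP‐treated eye and a black bar at the group mean. Timp1, Mmp12 and Adamts1 lay higher in all 6 IOP‐treated retinas than in any control retina, and mouse 5 was highest for Timp1, Mmp9, Mmp14 and Adamts4.

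Mmp2 and Mmp9 are the gelatinases, which cut denatured collagen and the type IV collagen of basement membranes. Mmp2 was at 2.28, 2.56 and 2.87 FPKM in the control retinas of mice 3, 4 and 6 and at 5.22, 2.58 and 6.77 FPKM in their IOP‐treated retinas. With GCV, it was at 2.07, 2.48 and 2.38 FPKM in the control retinas of mice 1, 2 and 5 and at 3.24, 2.63 and 3.80 FPKM in the IOP‐treated retinas. The IOP‐treated eye was the higher in all 6 mice, but in mice 4 and 2 by only 0.01 and 0.06 on the log2 scale, and the averaged difference of 0.49 ± 0.18 was not called (limma, adjusted p = 0.0952). With the IOP‐treated retina of mouse 4 left out, Mmp2 was called at 0.65 (limma, adjusted p = 0.00531).

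Mmp9 moved in both directions. It was at 5.86, 7.19 and 5.45 FPKM in control retinas and at 2.43, 8.70 and 7.05 FPKM in IOP‐treated retinas of mice 3, 4 and 6, and at 6.92, 10.7 and 7.50 FPKM against 8.59, 3.91 and 33.1 FPKM in mice 1, 2 and 5. The differences between the eyes ran from -1.25 in mouse 2 to 2.005 in mouse 5 on the log2 scale, with 4 mice higher and 2 lower in the IOP‐treated eye. The average of 0.10 ± 0.43 lay within this spread (limma, adjusted p = 0.898) and became -0.29 once that of mouse 5 was left out.

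Mmp3, stromelysin 1, has broad substrates and activates other metalloproteinase precursors. It was close to the limit of detection, at 0 to 0.243 FPKM in the 6 control retinas and 0 to 1.69 FPKM in the 6 IOP‐treated retinas. In control retinas this corresponded to at most an estimated 2.98 fragments. The highest value, an estimated 22.0 fragments, was in the IOP‐treated retina of mouse 3, the library that stood apart. The IOP‐treated eye was higher in 4 of 6 mice and the groups overlapped (0.37 ± 0.23, limma adjusted p = 0.324). Leaving out that retina of mouse 3 gave 0.14 on average and -0.07 in the arm without GCV.

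Mmp12, the macrophage elastase, cuts elastin and is a product mainly of macrophages. In control retinas it was at 0.0747, 0.191 and 0.233 FPKM without GCV and at 0.270, 0.226 and 0.0423 FPKM with GCV, which corresponds to an estimated 0.998 to 6.97 fragments a library. In IOP‐treated retinas it was at 2.34, 2.85 and 9.07 FPKM in mice 3, 4 and 6 and at 1.42, 2.03 and 4.47 FPKM in mice 1, 2 and 5, or 39.9 to 135 estimated fragments. No IOP‐treated retina overlapped with a control retina in either arm. At such low control levels the added 1 FPKM compresses the difference: with 0.1 FPKM in its place the averaged log2 difference was 3.61 in place of 1.83. The same change took Timp1 from 3.43 to 4.31 and the other low genes, neither of them called, from 0.37 to 0.95 (Mmp3) and from 0.33 to 0.66 (Adamts4).

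Mmp14, a membrane‐type metalloproteinase, sits on the cell surface and activates the precursor of Mmp2. It was at 6.77, 7.90 and 7.21 FPKM in control retinas and at 11.6, 11.6 and 5.02 FPKM in IOP‐treated retinas of mice 3, 4 and 6, so the groups overlapped through mouse 6. In mice 1, 2 and 5 it was at 5.61, 6.52 and 7.49 FPKM in control retinas and at 13.3, 8.19 and 42.0 FPKM in IOP‐treated retinas, which did not overlap. The averaged difference of 0.75 ± 0.34 was not called (limma, adjusted p = 0.168), and it shrank to 0.43 when mouse 5's IOP‐treated retina was left out.

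Adamts1, which cuts lecticans and has anti‐angiogenic activity, rested on an estimated 73.8 to 124 fragments in control retinas, more than Timp1 or Mmp12. It was at 2.34, 2.37 and 3.03 FPKM in control retinas and at 6.30, 8.33 and 4.82 FPKM in IOP‐treated retinas of mice 3, 4 and 6. With GCV, the control retinas of mice 1, 2 and 5 held 2.08, 2.37 and 2.41 FPKM and the IOP‐treated retinas 3.55, 5.27 and 4.12 FPKM. The difference between the eyes lay between 0.53 and 1.47 on the log2 scale in all 6 mice. Adamts4, another lectican protease known as an aggrecanase, was at 0.166 to 0.444 FPKM in control retinas and 0.0712 to 2.24 FPKM in IOP‐treated retinas. It was highest in the IOP‐treated retina of mouse 5 and was not called (0.33 ± 0.19, limma adjusted p = 0.286), with an average of 0.15 once that retina was left out.

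Timp1, an inducible secreted inhibitor, was the least abundant of the 3 TIMPs in control retinas. It was at 0.716, 0.912 and 3.18 FPKM in the control retinas of mice 3, 4 and 6 and at 0.547, 0.541 and 1.01 FPKM in those of mice 1, 2 and 5, from an estimated 2.94 to 19.6 fragments. In IOP‐treated retinas it was at 22.0, 25.7 and 9.55 FPKM without GCV and at 14.4, 14.4 and 64.4 FPKM with GCV. The lowest IOP‐treated value and the highest control value were both from mouse 6, whose eyes differed by 1.34 on the log2 scale, whereas those of the other 5 mice differed by 3.31 to 5.03.

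Timp2, which besides inhibition helps Mmp14 to activate Mmp2, and Timp3, which is bound to the matrix and abundant in the pigment epithelium, made up the rest of this TIMP transcript in control retinas. Timp2 was at 26.9 to 38.8 FPKM in control retinas and 28.6 to 39.9 FPKM in IOP‐treated retinas. Its averaged difference was 0.10, with a 95% confidence interval of -0.14 to 0.34. Timp3 was at 17.6 to 42.4 FPKM in control retinas and 20.3 to 40.8 FPKM in IOP‐treated retinas, with 3 mice higher and 3 lower, and its averaged difference of 0.00 had an interval of -0.57 to 0.57. Neither interval excludes a moderate change. The 4 retinas with the highest Timp3, at 35.1 to 42.4 FPKM, were also the 4 with the highest sums of pigment epithelium markers, 157 to 379 FPKM, and the other 8 had sums of 17.0 to 110 FPKM. The part of adhering pigment epithelium in these levels was not tested.

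The rise of Timp1 changed the make‐up of the inhibitor transcripts. Timp1 made up 0.766% to 4.18% of the summed FPKM of the 3 TIMPs in control retinas and 12.1% to 53.0% in IOP‐treated retinas, and these ranges did not overlap. The TIMP sum was 59.8 ± 14.4 FPKM (SD, n = 3) in control and 84.9 ± 5.51 FPKM in treated retinas without GCV, and 63.0 ± 10.7 against 90.3 ± 29.4 FPKM with GCV. The sum of the 7 proteases was 19.2 ± 1.44 against 32.5 ± 2.29 FPKM without GCV and 20.1 ± 2.69 against 48.2 ± 36.8 FPKM with GCV. The last spread came from mouse 5, with 90.4 FPKM where mice 1 and 2 had 31.1 and 23.0 FPKM.

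**Figure D2:**
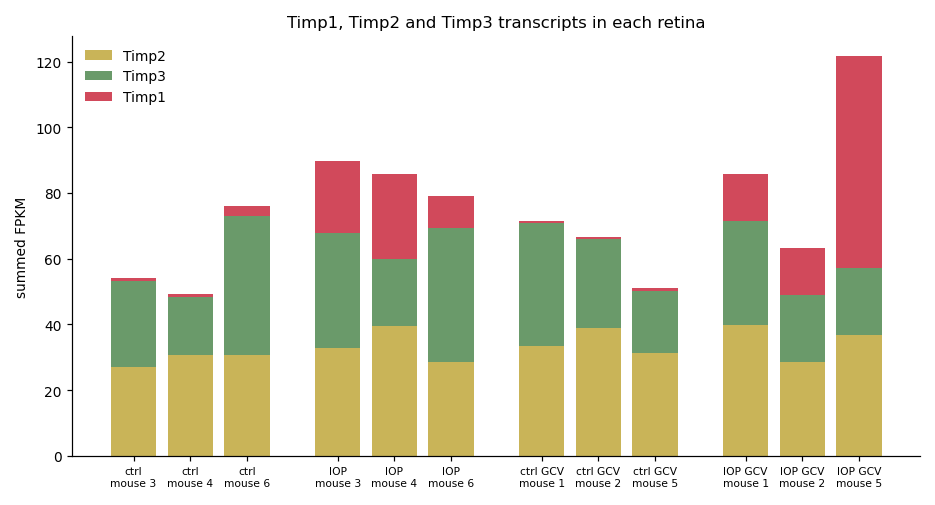
Summed FPKM of Timp2, Timp3 and Timp1 (stacked, vertical axis from 0) in each of the 12 retinas, by group and mouse. Timp1 is a thin layer in the 6 control retinas and reaches from 9.55 to 64.4 FPKM in the IOP‐treated retinas, while Timp2 stays between 26.9 and 39.9 FPKM throughout.

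Taken apart, Timp1 and then Mmp12 had the highest differences on the log2(FPKM + 1) scale in both arms, followed by Adamts1 without GCV and by Mmp14 with GCV. With 0.1 FPKM added in place of 1, Mmp12 at 3.98 stood above Timp1 at 3.66 without GCV, and Adamts4 at 1.49 above Mmp14 at 1.34 with GCV. That place of Mmp14 rested on mouse 5: with its IOP‐treated retina left out, the Mmp14 difference was 0.61 in place of 1.25, below Adamts1 at 0.70. Without GCV, Timp1 rose by 2.96 ± 0.58, Mmp12 by 2.12 ± 0.40 and Adamts1 by 1.04 ± 0.20 on the log2 scale (limma, adjusted p = 0.0358, 0.0297 and 0.0325), which makes 3 of 10 genes called beside 1.65% of all genes. Every IOP‐treated retina exceeded every control retina for these 3 genes, as for 11.7% of all genes. With both eyes of a mouse as a block, which fits the design, none of the 3 was called (adjusted p = 0.1001 for Timp1, 0.0843 for Mmp12 and 0.126 for Adamts1, by limma), nor was any when the IOP‐treated retina of mouse 3, or any 1 of the 3 control retinas, was left out. The other genes without GCV were Mmp2 at 0.65, Mmp3 at 0.39, Mmp14 at 0.25 and Timp2 and Timp3 at 0.18 each. Adamts4 was at -0.01 and Mmp9 at -0.14 on the log2 scale. The smallest adjusted p among these genes was 0.228 by limma. Leaving out the IOP‐treated retina of mouse 4 gave Mmp2 a call at 0.96 (limma, adjusted p = 0.0146). With 1 library left out, Mmp14 ranged from 0.07 to 0.60, Timp3 from -0.12 to 0.49 and Mmp9 from -0.44 to 0.31. Over all 6 pairs the 3 calls held with the block, with adjusted p of 0.0108, 0.0193 and 0.0343 by limma, and without each library in turn.

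With GCV, Timp1 rose by 3.89 ± 0.58 on the log2 scale and was the 1 gene of 10 called (limma, adjusted p = 0.0109), beside 1.80% of all genes. With the mouse as a block its adjusted p was 0.0499, and it was not called without the control retina of mouse 1 or that of mouse 2. Mmp12 differed by 1.54 ± 0.40 and Adamts1 by 0.68 ± 0.20, and neither passed (limma, adjusted p = 0.0844 and 0.117). The other genes with GCV were Mmp14 at 1.25, Adamts4 at 0.66, Mmp3 at 0.35, Mmp2 and Mmp9 at 0.34 each, Timp2 at 0.02 and Timp3 at -0.18, the smallest adjusted p among them being 0.196 by limma. Leaving out the IOP‐treated retina of mouse 5 took Adamts4 to 0.32 and Mmp9 to -0.43, and leaving out that of mouse 2 gave Adamts4 a call at 0.98 (limma, adjusted p = 0.0470). The 3 IOP‐treated retinas were above the 3 control retinas for 5 of the 10 genes, namely Timp1, Mmp12, Adamts1, Mmp2 and Mmp14, and for 14.5% of all genes. Over both arms this held for Timp1, Mmp12 and Adamts1, and for 5.47% of all genes.

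**Figure D3:**
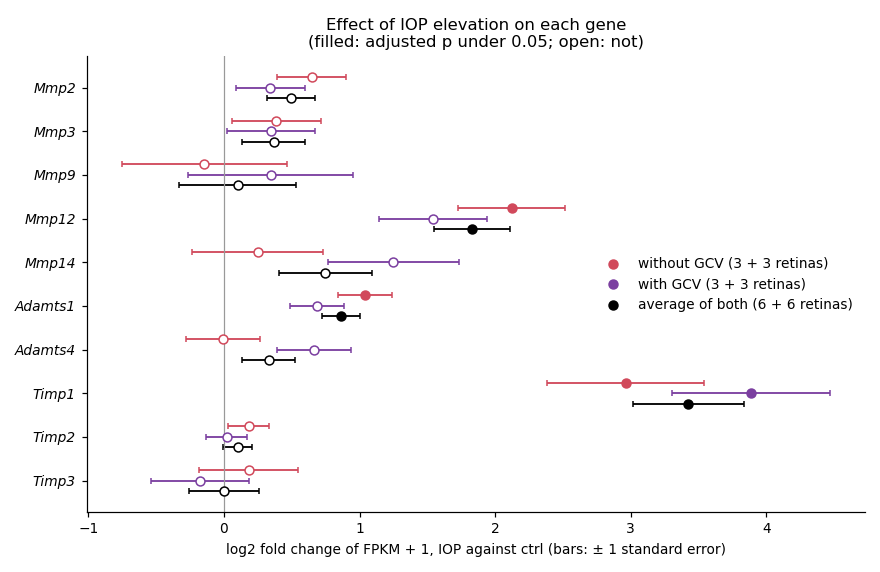
Log2 fold change of FPKM + 1 between IOP‐treated and control retinas (horizontal axis, bars ± 1 SE) of each gene without GCV, with GCV and averaged over both, with filled points where the adjusted p was under 0.05. Timp1 lies farthest from 0 in all 3 comparisons, with Mmp12 next, and the points of Timp2 and Timp3 lie between -0.18 and 0.18.

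The study asked whether removal of p16‐expressing cells alters the response to IOP, which is the difference between the arms. None of the 10 genes was called in this interaction and 0% of all genes tested were. At an unadjusted p under 0.05, limma called 358 of 18509 genes (1.93%) and none of the 10. The estimate for Timp1 was a response larger by 0.92 with GCV, with a 95% interval of -0.90 to 2.75, and for Mmp12 a response smaller by 0.58, with an interval of -1.83 to 0.67. For Adamts1 it was -0.36 with an interval of -0.98 to 0.27 and for Mmp14 1.00 with an interval of -0.51 to 2.51. Of the rest, Adamts4 was at 0.67, Mmp9 at 0.49, Mmp3 at -0.04, Timp2 at -0.16, Mmp2 at -0.30 and Timp3 at -0.36. These estimates moved with single libraries. When the IOP‐treated retina of mouse 5 was left out, that of Timp1 was 0.23 and that of Mmp14 0.36, and when that of mouse 6 was left out, the estimate for Mmp12 was -0.08. Over all fits with a library left out, Timp1 ranged from 0.23 to 1.27, Mmp14 from 0.36 to 1.48, Mmp12 from -0.92 to -0.08 and Adamts1 from -0.53 to -0.19, Adamts1 being nearest 0 when mouse 4 lost its IOP‐treated retina. Those intervals hold both a loss and a gain of response, so the data do not show that GCV left these genes as they were.

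The direct comparisons of GCV with mock treatment were between different mice. In IOP‐treated retinas 0% of all genes and none of the 10 were called. An unadjusted p under 0.05 was given by limma to 774 genes (4.18%), no more than that threshold alone would give. Adamts1 was among these 774 genes, at 3.55 to 5.27 FPKM with GCV and 4.82 to 8.33 FPKM without (difference -0.48 ± 0.20, limma adjusted p = 0.819). The other differences were 0.86 for both Mmp9 and Mmp14, 0.59 for Adamts4, 0.42 for Timp1, 0.06 for Timp2, 0.02 for Mmp3, -0.37 for Timp3, -0.41 for Mmp2 and -0.57 for Mmp12. Several rested on single libraries: with the IOP‐treated retina of mouse 5 left out, Mmp9 was at 0.09, Mmp14 at 0.22, Adamts4 at 0.24 and Timp1 at -0.28, and with that of mouse 6 left out Mmp12 was at -0.07. In control retinas 0% of all genes and none of the 10 were called either, with 295 genes (1.59%) but none of the 10 at an unadjusted p under 0.05. The fit used 1 spread for all 4 groups. Values varied more in IOP‐treated than in control retinas, so this comparison could miss differences between control retinas. Fitted alone, the control libraries also gave no call among the 10. The differences between control retinas were 0.37 for Mmp9, 0.22 for Timp2 and -0.51 for Timp1. Those of Mmp2, Mmp3, Mmp12, Mmp14, Adamts1, Adamts4 and Timp3 lay between -0.14 and 0.06. With 1 library left out, Timp1 ranged from -0.75 to -0.10, Mmp9 from 0.20 to 0.48, Timp2 from 0.14 to 0.29 and Timp3 from -0.31 to 0.30.

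Other genes of the pathway were taken from lists, of which some members are also expressed by the immune and glial cells whose markers are described further on. The counts are over the 6 eye pairs, where 12.2% of all genes were called, 1252 upwards and 1006 downwards, and no difference between lists was tested. Among 16 other matrix metalloproteinases measured, 3 rose and none fell, beside 12.2% of all genes called. These were Mmp19, Mmp25 and Mmp27, at 0.475 to 2.17, 0.118 to 0.426 and 0 to 0.507 FPKM after IOP elevation, and with the mouse as a block Mmp25 and Mmp27 were not called (limma adjusted p = 0.0506 and 0.0537). The median log2 difference of the list was 0.02. None of 17 other ADAMTS genes was called, including Adamts5, a further aggrecanase at 2.17 to 5.01 FPKM in the 12 libraries. Of 9 ADAM sheddases, which release cell surface proteins, only Adam8, a leukocyte protease, rose, by 1.65 ± 0.40 on the log2 scale (limma, adjusted p = 0.0293), and it was called in 5 of 12 fits with a library left out. Mmp19, Mmp25 and Mmp27 were called in 7, 6 and 2 of these fits.

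Of 10 other inhibitors and partners of metalloproteinases, 6 rose and 1 fell, beside 12.2% of all genes called. With the mouse as a block 6 of these 7 were called, the exception being Furin, a convertase of precursors (limma adjusted p = 0.127), which is named after its value was seen. Lcn2, whose product binds and stabilises the Mmp9 protein, rose by 3.63 ± 0.42 from 9.58 to 23.8 FPKM in control retinas to 90.2 to 646 FPKM in IOP‐treated retinas. Thbs1, a matrix protein that binds gelatinases, rose by 1.87 ± 0.41, and A2m, a trap for many proteases, rose by 1.42 ± 0.31. Lcn2, and Serpina3n of the next list, also stand among the markers of reactive glia. Reck, a membrane‐anchored inhibitor of several metalloproteinases, fell by 0.58 on the log2 scale, lower in the IOP‐treated eye of all 6 mice. The limma adjusted p of these 4 genes was at most 0.0264, and at most 0.0488 with the mouse as a block. With each of the 12 libraries left out in turn, Lcn2 was called in all 12 fits, Thbs1 in 7, and A2m and Reck in 5 each.

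Plasmin, the product of the plasminogen system, activates several metalloproteinase precursors. The list of that system and of serpins had 6 of 12 genes up and 1 down, again beside 12.2% of all genes called. Serping1, the inhibitor of complement C1, rose by 2.13 ± 0.22 and Serpina3n by 3.37 ± 0.48 on the log2 scale. Plaur, the urokinase receptor, rose from at most 0.118 FPKM to between 0.708 and 4.83 FPKM. Serpini1, neuroserpin, which neurons secrete, fell by 0.86 on the log2 scale. All 7 called genes of the list were also called with the mouse as a block, but Serpini1 was called in only 6 of the 12 fits with a library left out.

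Of 13 genes of the lectican matrix, which holds the lecticans cut by ADAMTS proteases with their link proteins, tenascins and other chondroitin sulfate proteoglycans, 3 fell and none rose, beside 12.2% of all genes called. These were Hapln4, Bcan and Hapln1, with log2 differences of -1.34, -0.78 and -0.47 (limma adjusted p = 0.0349, 0.0484 and 0.0305), and none of them was called with the mouse as a block (adjusted p = 0.0541, 0.0763 and 0.0630). With a library left out they were called in 2, 1 and 4 of 12 fits. Of 16 cytokines, transcription factors and signalling genes of the pathways that induce metalloproteinases or Timp1, 11 rose and none fell, beside 12.2% of all genes called. Stat3, which relays signals of the interleukin‐6 family, rose by 1.77 ± 0.11, Cebpd by 3.23 ± 0.22, Socs3, the feedback inhibitor of that signalling, by 2.79 ± 0.27 and Junb, a component of AP‐1, by 2.06 ± 0.23, each in all 6 mice.

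**Figure D4:**
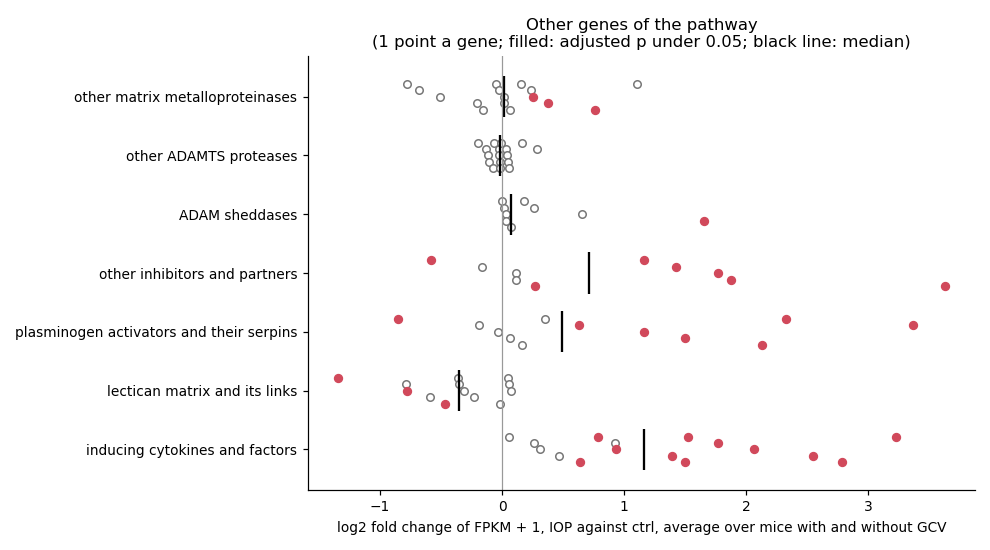
Averaged log2 fold change of FPKM + 1 between IOP‐treated and control retinas (horizontal axis) of the measured genes of 7 lists, 1 point a gene, filled where the adjusted p was under 0.05, with a black line at the list's median. The ADAMTS list shows no filled point, the lectican matrix list shows 3 filled points below 0, and the list of inducing cytokines and factors, which also holds the inhibitor Socs3, shows 11 above 0.

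Markers of other cells also differed between the eyes. The sum of 8 monocyte and macrophage markers was 10.1 to 51.2 FPKM in control retinas and 172 to 2382 FPKM in IOP‐treated retinas, and was higher in the IOP‐treated eye of 6 of 6 mice, with 7 of 8 markers called upwards. The neutrophil sum was 0.918 to 17.5 FPKM against 15.9 to 396 FPKM, with 3 of 8 called and the defining markers Ly6g and Mpo at 0. The microglial sum was 36.2 to 44.0 FPKM against 61.0 to 171 FPKM, with 5 of 8 markers up and 1 down. The sum of reactive glia markers was 142 to 281 FPKM against 746 to 1973 FPKM, with 8 of 8 up, and that of Mueller glia was lower in all 6 mice, with 2 of 8 down and 1 up. The IOP‐treated retina of mouse 5, which held the highest Timp1, Mmp14, Mmp9 and Adamts4, also held the highest monocyte, neutrophil, microglial and reactive glia sums. The retina of mouse 6, with the highest Mmp12, had the second highest monocyte and neutrophil sums, 942 and 113 FPKM, but the lowest Timp1, Mmp14 and Adamts4 of the 6 IOP‐treated retinas. Adamts1 was highest in mouse 4, whose monocyte sum of 351 FPKM was the second lowest of the 6. In mouse 5 it was at 4.12 FPKM. That IOP‐treated retina of mouse 4 also held the highest endothelium sum of any library, 60.1 FPKM, and a reactive glia sum of 880 FPKM. Lens markers were higher in the IOP‐treated eye of 5 mice, with 5 of 8 called upwards (among them Crybb2, a crystallin, by 4.83 on the log2 scale) and with sums of 6.18 to 6756 FPKM in control retinas against 96.5 to 6147 FPKM. No marker on the endothelium, pericyte, fibroblast, pigment epithelium, cornea or blood lists was called, while 2 of 4 astrocyte markers rose and 1 fell and 4 of 12 neural retina markers fell. The part of these cells in the differences of the 10 genes was not tested.

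**Figure D5:**
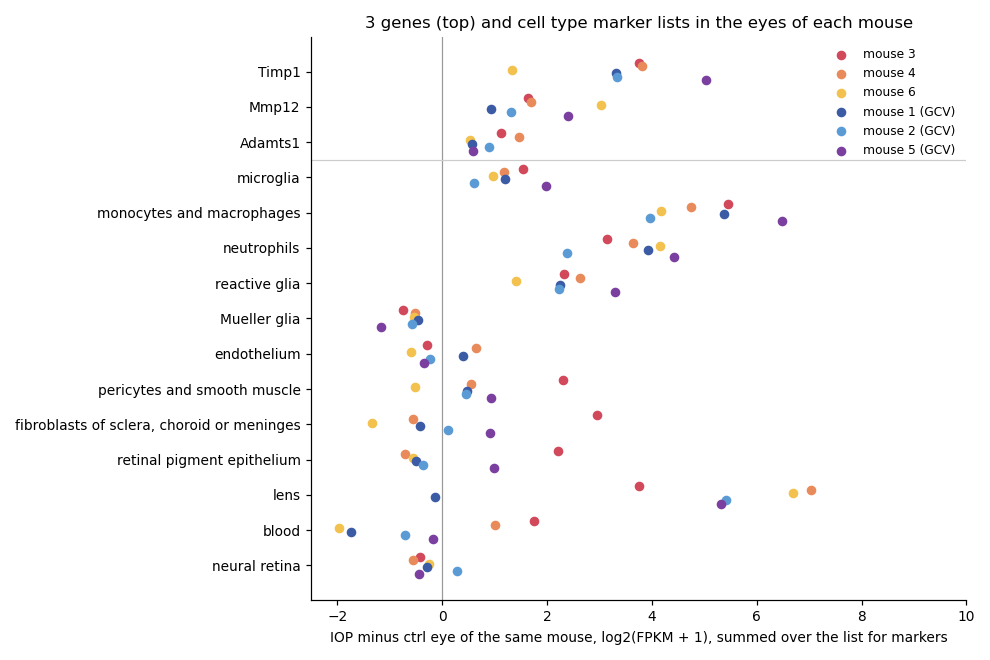
Difference between the IOP‐treated and the control eye of each mouse in log2(FPKM + 1) (horizontal axis), for Timp1, Mmp12 and Adamts1 (top) and for the summed FPKM of 12 lists of cell type markers, with colours for mice. All 6 mice lie to the right of 0 for the 3 genes and for the microglia, monocyte, neutrophil and reactive glia lists, and to the left for Mueller glia.

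Likeness between genes was described by Pearson's r of log2(FPKM + 1) over the 12 libraries, among 12909 genes of at least 1 FPKM on average. These libraries share the contrast of IOP, so r is high for any pair of genes that respond to it. Timp1 was most like Glipr2 (r = 0.98), Tnfrsf1a (0.98), a receptor of tumour necrosis factor, and Irgm1 (0.98), an interferon‐induced GTPase. Mmp12 was most like Arl6 (0.98), Ccnb2 (0.98), a mitotic cyclin, and Map3k1 (0.98), and Adamts1 was most like Gbp5 (0.95), an interferon‐induced GTPase. Mmp14 went with Ikbke (0.97), Gsap (0.97) and Irg1 (0.96), and its r with Adamts4 was 0.95, the closest pair among the 10 genes. Timp3 was most like Calml4 (0.94) and Cldn1 (0.92), Timp2 like Ermp1 (0.96), Mmp2 like Dhx29 (0.94) and Mmp9 like Ptprj (0.93).

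The 10 genes lie on 9 chromosomes of the mouse genome (GRCm38), with Mmp3 and Mmp12 close together on chromosome 9. Timp1 (chrX:20870166-20874735, + strand, 6 exons) lies inside Syn1, the gene of the synaptic vesicle protein synapsin I on the opposite strand, and shares no exon base with it. Timp3 (chr10:86300372-86349506, + strand) lies inside Syn3 on the opposite strand and shares 1733 exon bases with it. The library kit keeps the strand, but whether the counting used it is not given in the sources used here. Syn1 lay on average in the other direction from Timp1, between 53.2 and 107 FPKM in control retinas and between 16.3 and 59.3 FPKM in those treated (averaged difference -1.05, limma adjusted p = 0.0546).

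Since AP‐1 and STAT factors were among the cytokines and factors that rose, the 250 bases upstream of the transcript starts were searched on both strands for the AP‐1 motif TGANTCA and the STAT motif TTCNNNGAA. RefSeq promoter windows (GRCm38.p6) were matched for 7 of the 10 genes, the others being Mmp2, Mmp9 and Adamts4. An AP‐1 match was present in Mmp12, with its first base 44 bases before the start, and in Mmp3, 46 bases before the start, and 6.75% of 32851 windows hold such a match. No AP‐1 match was found in these windows of Timp1, Timp2, Timp3, Mmp14 and Adamts1. The STAT motif, present in 7.02% of all windows, was found in none of the 7 genes. A second window of Mmp12, from a start 2977 bases upstream, held neither motif. A match is a description of the letters only, and a missing match says nothing of the factor. Shown here are the last 120 bases before the start of the 3 genes that rose, and of Mmp3 for its match at almost the same distance as in Mmp12, 5′ to 3′ on the strand of the gene, with matches in capitals. The 4 genes were picked after their calls and these sequences had been seen.
Timp1 chrX:20870046-20870165 (+ strand): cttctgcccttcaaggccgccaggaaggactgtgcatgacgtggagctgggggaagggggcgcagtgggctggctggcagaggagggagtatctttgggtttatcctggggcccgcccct
Mmp12 chr9:7347254-7347373 (+ strand): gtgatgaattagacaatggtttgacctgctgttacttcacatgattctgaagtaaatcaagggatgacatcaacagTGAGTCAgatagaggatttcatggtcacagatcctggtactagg
Adamts1 chr16:85803114-85803233 (- strand): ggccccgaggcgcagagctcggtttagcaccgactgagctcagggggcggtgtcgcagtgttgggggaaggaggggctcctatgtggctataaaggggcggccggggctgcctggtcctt
Mmp3 chr9:7445702-7445821 (+ strand): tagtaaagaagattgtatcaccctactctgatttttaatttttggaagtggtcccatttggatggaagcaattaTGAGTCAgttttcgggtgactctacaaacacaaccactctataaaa
Mmp12 and Mmp3 thus hold the same match, TGAGTCA, nearly equally far from their starts, Mmp12 being called over the 6 pairs and Mmp3 not. Timp1 and Adamts1, which were called, show no capitals in the stretch printed.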

How the data were processed

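RNA of 12 retinas was sequenced from libraries of the TruSeq stranded mRNA kit. The authors deposited 1 table of FPKM values for 24340 rows named by gene symbol. The unit was inferred from the values, no counts are given, and none of its columns of samples was left unused (0). The study describes counting on RefSeq exons with HOMER, whereas the submitters' processing notes name TopHat2, Bowtie2, Cufflinks and Cuffdiff with mm10, and which made the values is not given in the sources used here. FPKM values depend on the transcript length used and on the rest of the library. Depth was estimated from the steps of low values in single-transcript genes of at least 1500 bases (170 bases subtracted). Between 83.4% and 90.0% of these values fell within 0.2 of whole fragments. For 2 libraries a depth near double the others fitted as well and the lower value was taken, a choice made after the values had been seen. Intervals for single values were not computed, and estimated fragments cover counting error only.

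Gene tests ran in limma 3.58.1 (R 4.3.3) on values transformed to log2(FPKM + 1), using 4 group means, the variance trend, the 18509 genes above 0 in at least 1 library, and Benjamini-Hochberg adjustment over all of them at 0.05. A test on counts had been planned in case the table held counts. The 6 comparisons were IOP without GCV, with GCV and averaged, their interaction, and GCV against mock treatment in each kind of retina. The arms share no libraries, but the averaged comparison uses both. The mouse numbers in the labels pair the eyes because both come from the same animal. The correlation between the eyes' deviations from their group means was 0.0998 to 0.388 in mice 2 to 6 and -0.117 in mouse 1, and the mouse as a block was an alternative. Other alternatives are given in the closing section. All 10 genes are named in every comparison. From each further list, the genes named are up to 4 called ones with the smallest adjusted p and the 2 most abundant, shown where the text turns on them. For likeness the 3 genes with the highest r were taken. The 10 genes and the 7 pathway and 14 marker lists were chosen with earlier results of these data known. The motifs, and the promoters printed, were chosen after calls and sequences had been seen. Coordinates come from GENCODE vM21 (GRCm38), matched by symbol. The calling was tried on simulated data with independent retinas, equal spread in all groups and changes only in genes of at least 1 FPKM. It therefore does not bear on the paired eyes, the unequal spread or the low genes of the real data. Tables were made with Python 3.11.15, pandas 2.3.3 and numpy 2.4.6, and figures with matplotlib 3.10.9. Some results are withheld and are not reported here.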

Additional observations from a re-analysis of the deposited data

How the results depend on the processing

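Over the 6 eye pairs, the count of 3 called genes stayed within 1.5 times under every alternative run: a low pseudocount (0.1), a filter on low values (1 FPKM in at least 3 libraries), the mouse as a replicate block, median-ratio scaling, quantile normalization, no variance trend, array weights, an adjusted p under 0.1 (4 genes) and each library left out (3 to 4 genes, Mmp2 being added without the IOP‐treated retina of mouse 4). Fitting only the groups compared is the same fit there. Without GCV, the count of 3 became 0 with the mouse as a replicate block and 0 with only the groups compared, and was 0 to 4 with 1 library left out. It was 0 without control retina 3, 4 or 6 or IOP‐treated retina 3. With GCV, the count of 1 became 2 with a pseudocount of 0.1, 0 with only the groups compared, 3 with array weights and 2 at an adjusted p under 0.1, and 0 to 2 with 1 library left out, with 0 without control retina 1 or 2 and with Adamts4 added without IOP‐treated retina 2. It stayed at 1 with the block. The cause of these shifts was not tested, beyond the fewer libraries or residual degrees of freedom in some fits. The interaction and both GCV comparisons gave 0 of the 10 genes in every setting. Of 988 values of single genes under the alternatives, 959 kept their side of the threshold and their call, 21 lost and 8 gained it. No called value changed direction, whereas 50 values of genes not called changed sign. The filter on low values left out Mmp3 and Adamts4, so 8 genes remained. Depth limits Mmp3, Mmp12, Timp1 and Adamts4, which rest on few estimated fragments in control retinas, and 3 retinas a group leave wide intervals for the interaction.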
